A study of Homo sapiens with 6 samples.

Results

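The 42 genes described here encode the machinery of the G2/M transition and of mitosis, and they were taken by symbol from a deposited table of 14136 gene entries. All 42 were found in the table, and all 42 were among the 12210 genes tested. They were listed by function, with earlier results of these data known. The table covers 2 groups of 3 libraries from Cal33, a long-established cell line grown from a human squamous carcinoma of the mouth. In the CES2 group the cells carried a lentiviral pSin-EF2 vector that expresses FLAG-tagged carboxylesterase 2, and in the Vector group they carried the same vector empty. Both groups were stable lines selected with 0.5 ug/ml puromycin after infection with virus that 293FT cells, a packaging line of human embryonic kidney origin, had produced. Nothing in the labels ties the 3 libraries of a group to separate infections or cultures, so p-values measure only the spread between these libraries, which may be technical.

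Entry into mitosis is driven by cyclin B bound to the kinase CDK1. Aurora and Polo-like kinases then build the spindle and attach chromosomes to it, and the anaphase-promoting complex (APC/C), an E3 ubiquitin ligase, ends mitosis by marking cyclins and securin for destruction. Transcripts of these genes accumulate in G2 and mitosis, under the MuvB complex with B-MYB and the forkhead factor FOXM1, which act on a short promoter element called the cell cycle genes homology region (CHR). NF-Y, which binds the CCAAT box, acts beside them. In growing tumour lines these transcripts are commonly used to read the share of cells that are cycling.

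Promoters of the members were looked at first, because their shared elements are the best known common feature of these genes. RefSeq promoters (GRCh38.p14, 250 bases before to 50 bases after the first listed start site) were matched for 36 of the 42 members, and AURKA, TTK, BIRC5, UBE2C, TPX2 and FOXM1 had no entry. A CHR was searched as TTTGAA or TTCGAA and a CCAAT box as CCAAT, each on both strands. At least 1 CHR stood in 27 of the 36 promoters (75.0%), against 11.0% of the 9594 tested genes with a promoter and 16.6% of all 27305 promoters. At least 1 CCAAT box stood in 29 of the 36 (80.6%), against 36.8% of tested genes and 35.7% of all promoters. Both stood in 63.9% of member promoters, against 4.69% and 6.58%. In 15 members a CHR began within the 30 bases before the start site. The following stretches are the 180 bases before the start sites of PLK1 and CDC20, whose levels varied widely between libraries, of CCNB2, whose level varied least, and of CENPA, which had the lowest fold change. All are on the plus strand, with CHR and CCAAT matches on either strand in capitals. They lie at chr16:23678709-23678888 for PLK1, chr1:43358801-43358980 for CDC20, chr15:59104966-59105145 for CCNB2 and chr2:26785876-26786055 for CENPA.
PLK1: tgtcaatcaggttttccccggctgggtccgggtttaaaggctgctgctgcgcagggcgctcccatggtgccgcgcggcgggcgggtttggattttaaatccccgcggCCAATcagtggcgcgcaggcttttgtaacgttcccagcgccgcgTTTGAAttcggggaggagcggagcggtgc
CDC20: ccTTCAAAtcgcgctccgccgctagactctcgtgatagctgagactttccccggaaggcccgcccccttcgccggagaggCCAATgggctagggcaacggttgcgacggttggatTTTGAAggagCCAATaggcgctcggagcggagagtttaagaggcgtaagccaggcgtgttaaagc
CCNB2: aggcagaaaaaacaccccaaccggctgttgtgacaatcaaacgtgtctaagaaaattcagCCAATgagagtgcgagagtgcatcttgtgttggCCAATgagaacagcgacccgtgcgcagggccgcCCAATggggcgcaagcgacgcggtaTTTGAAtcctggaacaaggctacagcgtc
CENPA: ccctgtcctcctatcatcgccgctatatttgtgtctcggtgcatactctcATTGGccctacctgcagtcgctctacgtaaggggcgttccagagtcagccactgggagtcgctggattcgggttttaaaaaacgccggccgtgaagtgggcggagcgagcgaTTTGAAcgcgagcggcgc
PLK1, CCNB2 and CENPA each have a CHR close to the RefSeq start site, and CDC20 has 1 between a pair of CCAAT boxes and another farther upstream. The transcripts listed with the deposited values begin earlier, inside these stretches. They begin at 23678822 for PLK1, 43358955 for CDC20, 59105078 for CCNB2 and 26785997 for CENPA. Counted from those starts, the CHR matches of PLK1, CCNB2 and CENPA lie within the transcript. A match of letters is a description and does not show that a factor binds there. CCNA2, CCNB1, NEK2, PTTG1, AURKB and KIF20A had a CCAAT box with no CHR by these letters, and KIF2C, CENPE and CDC25C had neither. Only the first listed start of each gene was searched, and 5 members had more than 1 start. A missing match in this window therefore does not show that the gene lacks the element.

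The labels were checked first on the overexpressed gene. CES2 was at 2664, 1929 and 2294 TPM in the CES2 libraries, against 45.6, 41.9 and 44.9 TPM in the Vector libraries (TPM is an abundance corrected for transcript length, with each library scaled to the same total). CES2 was also the only gene of the 12210 that passed an adjusted p of 0.05 (limma with Benjamini-Hochberg adjustment), so 0.00819% of tested genes were called. TPM keeps no sequencing depth, so depth is unknown. Of 13 squamous markers, KRT5 was at 1031 to 2597 TPM and TP63 at 54.3 to 117 TPM over the 6 libraries, whereas the basal keratin KRT14 was at only 1.14 to 2.97 TPM. Of 20 markers of fibroblasts, leukocytes and endothelium, 12 had no entry. Among those listed the highest were CDH5, at 8.25 to 25.3 TPM, CD68, at 5.47 to 11.6 TPM, and COL1A1, at 3.89 to 10.5 TPM.

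Mitosis and G2/M genes were well expressed in both groups. Mean TPM over the 6 libraries ran from 24.9 for KIF18A to 428 for CDC20, with a median of 98.9. After CDC20 came UBE2C at 401, PTTG1 at 334, TPX2 at 309, CCNB1 at 307 and TOP2A at 301 TPM. Together the 42 genes held 5769, 5339 and 6369 TPM in the CES2 libraries and 5340, 5810 and 6406 TPM in the Vector libraries, so the groups overlapped. Levels of CDK1, NUF2, KIF2C, KIF20A and HMMR carry a limit, since the transcript listed for each is under 50% of the longest coding transcript in GENCODE release 29. Whether a value belongs to that transcript alone or to the whole gene is not given in the sources used here.

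No member passed the test between CES2 and Vector, with 0 of 42 called against 0.00819% of all tested genes. The lowest adjusted p of any member was 0.9998 (limma). In this main fit 0 members had an unadjusted p under 0.05, against 1.09% of all tested genes, and the count changed in some other runs. Log2 fold changes ran from -0.23 for CENPA to 0.40 for AURKA, and 38 of 42 lay within 0.2 of 0. They were positive for 20 members and negative for 22, with a median of -0.0018, beside a median of -0.057 over all tested genes, of which 36.3% were positive. The split of signs moved with the processing, to 30 positive and 12 negative with median rescaling. With library weights, which rest mostly on CES2 1, the split was 13 and 29. It was 10 and 32 without CES2 3, 13 and 29 without Vector 2, and 27 and 15 without CES2 2 or without Vector 3. The 95% interval of the log2 fold change lay between -1 and 1, that is inside a 2-fold difference, for 42 of 42 members. The same held for 80.5% of all tested genes. The outermost bounds were -0.80 for FOXM1 and 0.82 for AURKA, which as folds are 0.573 and 1.77, and 26 members had intervals inside 1.5-fold. The median standard error was 0.20 for the members and 0.23 over the 6254 tested genes whose mean lay within the members' range. In a bulk library, fewer cells in G2 or mitosis and less of a transcript per such cell cannot be told apart.

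**Figure D1:**
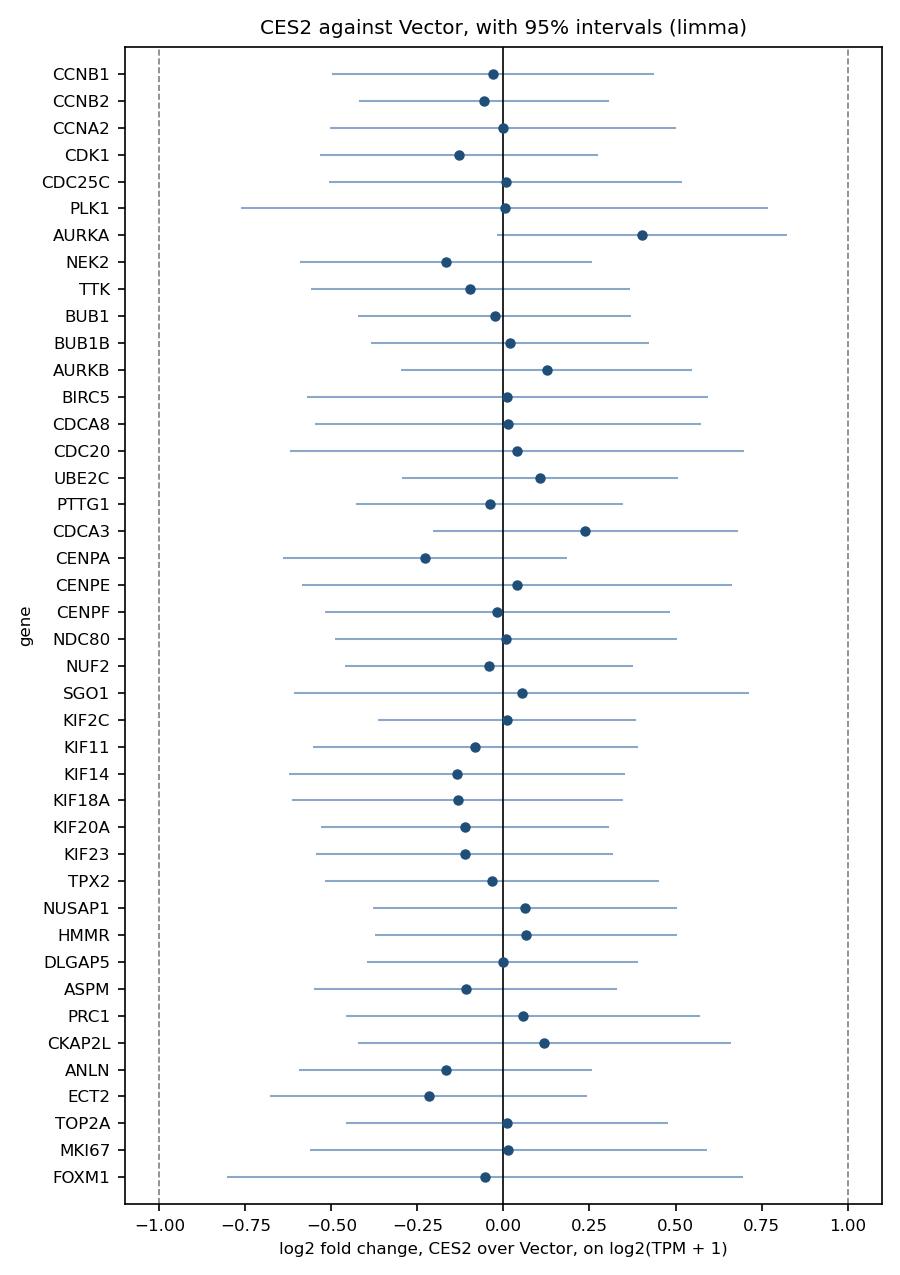
Log2 fold change of CES2 over Vector on the log2(TPM + 1) scale for the 42 members (points) with 95% intervals from limma (lines), 3 libraries in each group; dashed lines mark a 2-fold difference. All 42 intervals lie inside the dashed lines, and AURKA lies farthest from 0, at 0.40.

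Cyclins and CDK1, the switch that starts mitosis, showed no called difference. CCNB1, which encodes cyclin B1, was at 302, 264 and 341 TPM in CES2 and at 247, 366 and 320 TPM in Vector. The lowest and the highest value were both Vector libraries. CDK1, the kinase that cyclin B1 activates, was at 224, 190 and 181 TPM in CES2 and at 243, 211 and 197 TPM in Vector. The groups overlapped, with a log2 fold change of -0.13 (standard error 0.18). CCNB2, encoding cyclin B2, was the steadiest member, at 204 to 219 TPM in CES2 and 206 to 238 TPM in Vector. CCNA2, encoding cyclin A2, ran from 120 to 178 TPM in CES2 and from 119 to 172 TPM in Vector. CDC25C, the phosphatase that activates CDK1, was at 26.7 to 36.2 TPM in CES2 and 25.0 to 37.3 TPM in Vector.

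Among mitotic kinases AURKA was the member farthest from no difference. It encodes Aurora A, the centrosome kinase that matures spindle poles and activates PLK1, and its listed transcript has 10 exons on chromosome 20 (minus strand, GRCh38). AURKA was at 246, 220 and 174 TPM in CES2 and at 165, 157 and 157 TPM in Vector. Every CES2 library lay above every Vector library, with the gap narrow between CES2 3 and Vector 1. The means were 214 ± 36.7 TPM in CES2 and 160 ± 4.44 TPM in Vector (SD, n = 3 each). Its log2 fold change, 0.40 (standard error 0.18, 95% interval -0.018 to 0.82), did not pass (limma, unadjusted p = 0.0586). The exact two-sided permutation test gave p = 0.1, the smallest that 3 libraries against 3 allow. AURKA was the 1 member of 42 whose groups did not overlap with CES2 above, 2.38% of members against 1.07% of all tested genes. With CES2 below there were 0 members, against 2.63% of all tested genes. Without CES2 1 the log2 fold change of AURKA was 0.29, and without CES2 3 it was 0.54.

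PLK1, the Polo-like kinase that works at centrosomes, kinetochores and the midzone, had the largest ratio of highest to lowest library of all members. It was at 210, 209 and 366 TPM in CES2 and at 159, 289 and 346 TPM in Vector. The highest value was a CES2 library and the lowest a Vector library, a 2.30-fold range, while the means were 262 TPM in CES2 and 265 TPM in Vector. Its log2 fold change of 0.0040 turned to -0.32 without Vector 1 and -0.26 without CES2 3. The other kinases were steadier. NEK2, which separates centrosomes, was at 60.8 to 76.6 TPM in CES2 and 71.6 to 87.5 TPM in Vector. TTK, which starts the spindle assembly checkpoint, was at 45.7 to 61.7 TPM in CES2 and 47.7 to 61.7 TPM in Vector. The checkpoint kinase BUB1 was at 83.5 to 99.1 TPM in CES2 and 84.5 to 101 TPM in Vector, and BUB1B, encoding BubR1 of the same checkpoint, had means of 67.0 TPM in CES2 and 66.3 TPM in Vector.

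The chromosomal passenger complex corrects faulty attachments of chromosomes to the spindle, and 3 of its genes were members. AURKB, its kinase Aurora B, was at 149, 145 and 197 TPM in CES2 and at 151, 139 and 156 TPM in Vector. Only CES2 3 stood above all Vector libraries, and the log2 fold change was 0.13 (standard error 0.18). Without CES2 3 it was -0.014. BIRC5, encoding survivin, had means of 72.5 TPM in CES2 and 71.7 TPM in Vector, and CDCA8, encoding borealin, 92.5 TPM in CES2 and 90.8 TPM in Vector. The paralogous Aurora kinases thus had log2 fold changes of 0.40 and 0.13, and the difference between them was not tested.

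Genes of the APC/C pathway overlapped between groups. CDC20, the activator that brings substrates to the APC/C, was the most abundant member. It was at 396, 349 and 539 TPM in CES2 and at 275, 556 and 450 TPM in Vector. As with CCNB1, the lowest and the highest value were both Vector libraries, and the log2 fold change was 0.041 (standard error 0.29). It turned to -0.25 without Vector 1 and -0.14 without CES2 3. CDCA3, described in Xenopus as a cofactor of a ligase that degrades the CDK1 inhibitor WEE1, was at 99.1, 97.4 and 116 TPM in CES2 and at 73.5, 104 and 88.3 TPM in Vector. Its log2 fold change was 0.24 (standard error 0.19), the second highest of the members, and Vector 2 lay above CES2 1 and CES2 2. UBE2C, the APC/C's ubiquitin-conjugating enzyme, had means of 415 TPM in CES2 and 387 TPM in Vector. PTTG1, encoding securin, had means of 329 TPM in CES2 and 340 TPM in Vector.

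At centromeres and kinetochores, CENPA had the lowest log2 fold change of the members. CENPA encodes the histone H3 variant that marks centromeres. It was at 47.2, 51.3 and 58.5 TPM in CES2 and at 63.4, 55.9 and 64.8 TPM in Vector. Vector 2 lay below CES2 3, so the groups overlapped, and the log2 fold change was -0.23 (standard error 0.18, 95% interval -0.64 to 0.18). CENPF, a large protein of the outer kinetochore, was at 87.8, 78.2 and 95.5 TPM in CES2 and at 93.9, 67.0 and 108 TPM in Vector, where the lowest and the highest value both lay. NDC80 and NUF2, partners in the complex that grips microtubules, had means of 68.3 and 44.6 TPM in CES2 and 67.2 and 45.9 TPM in Vector. CENPE, a kinesin that moves chromosomes to the metaphase plate, ran from 20.7 to 41.9 TPM in CES2 and from 25.4 to 32.8 TPM in Vector. SGO1, shugoshin, which protects centromeric cohesion, ran from 22.5 to 41.5 TPM in CES2 and from 22.2 to 37.5 TPM in Vector.

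**Figure D2:**
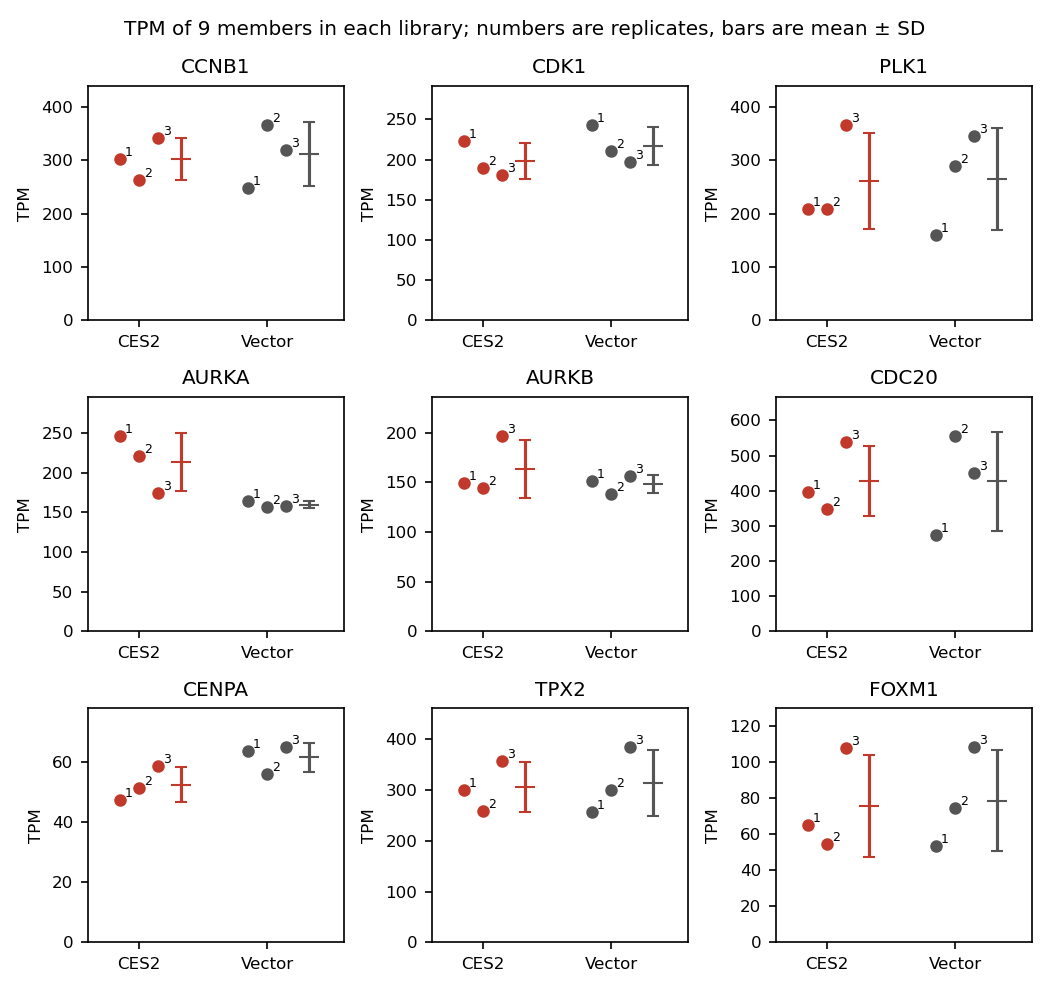
TPM of 9 members in each of the 3 CES2 libraries (red) and the 3 Vector libraries (grey), numbered by replicate, with mean and SD beside the points; each vertical axis starts at 0. AURKA is the panel in which the groups do not overlap, and PLK1 has the widest range as a ratio of highest to lowest, 2.30, from 159 to 366 TPM.

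Of the 6 members grouped as mitotic kinesins, the motors of the spindle, 5 had negative log2 fold changes, none of them called. Their median was -0.11 against -0.057 over all tested genes, of which 36.3% were positive. CENPE, a kinesin grouped with the kinetochore genes, was at 0.039. Outside the members, the kinesins KIF15, KIF22 and KIFC1 were positive, and KIF4A, KIF18B and KIF20B were negative. KIF2C, which depolymerises microtubules at centromeres, was at 137, 159 and 141 TPM in CES2 and at 152, 136 and 146 TPM in Vector. The groups overlapped, with a log2 fold change of 0.0095 (standard error 0.16). KIF18A, which damps chromosome movements at the metaphase plate, was at 23.8, 19.9 and 27.7 TPM in CES2 and at 25.1, 23.9 and 29.2 TPM in Vector. Its log2 fold change was -0.13 (standard error 0.21). KIF11, the motor that pushes spindle poles apart, KIF14 and KIF23, which act in cytokinesis, and KIF20A, a motor of the midzone, had log2 fold changes from -0.13 to -0.081.

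Spindle, midzone and cortex genes were split, with 4 of 9 positive and 5 negative. TPX2, which activates Aurora A on microtubules, was at 299, 258 and 356 TPM in CES2 and at 257, 299 and 384 TPM in Vector. The range in each group was far wider than the difference between the means, 305 TPM in CES2 and 313 TPM in Vector. ECT2, the exchange factor that triggers the cleavage furrow, was at 164, 131 and 104 TPM in CES2 and at 154, 151 and 152 TPM in Vector. The Vector values lay inside the CES2 range, and the log2 fold change was -0.22 (standard error 0.20). ANLN, the furrow scaffold anillin, had means of 172 TPM in CES2 and 192 TPM in Vector, and PRC1, which bundles midzone microtubules, 143 TPM in CES2 and 141 TPM in Vector. NUSAP1, HMMR, DLGAP5, ASPM and CKAP2L, all microtubule or spindle pole proteins, had log2 fold changes from -0.11 to 0.12.

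TOP2A, the topoisomerase that untangles sister chromatids, was at 316, 297 and 287 TPM in CES2 and at 344, 227 and 336 TPM in Vector. The Vector values enclosed the CES2 values. MKI67, the Ki-67 antigen that coats mitotic chromosomes and is used as a proliferation marker, had means of 159.7 TPM in CES2 and 160.5 TPM in Vector, and its 95% interval ran from -0.56 to 0.59. FOXM1, the transcription factor that drives many of the other members, was at 64.8, 54.6 and 108 TPM in CES2 and at 53.2, 74.3 and 108 TPM in Vector. Replicate 3 was highest in both groups and the groups overlapped, with a log2 fold change of -0.055 (standard error 0.33). Of the members with values given in every library, AURKA, CDCA3, CENPA and KIF18A kept the sign of their log2 fold change under every alternative processing run. Each was named for the smallest p of its functional group in these same data. The replicate block, the other filters and the fit without intensity trend leave every log2 fold change as it is. Those runs could therefore not change a sign.

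Levels varied among the libraries of each group. The highest library of a member was 1.17 to 2.30 times its lowest, with a median of 1.48, beside a median of 1.63 over the 6254 tested genes in the same range of levels. The median over members of log2(TPM + 1) minus each gene's mean was -0.012, -0.13 and 0.12 in CES2 1 to 3 and -0.026, -0.052 and 0.16 in Vector 1 to 3. Vector 3 and CES2 3 were thus highest, with 36 and 30 of the 42 members above their own means, and CES2 2 was lowest, with 9. Over all tested genes the same median was -0.049 in CES2 3 and 0.14 in Vector 3, so the members and the rest of the table stood together in Vector 3 and apart in CES2 3.

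**Figure D3:**
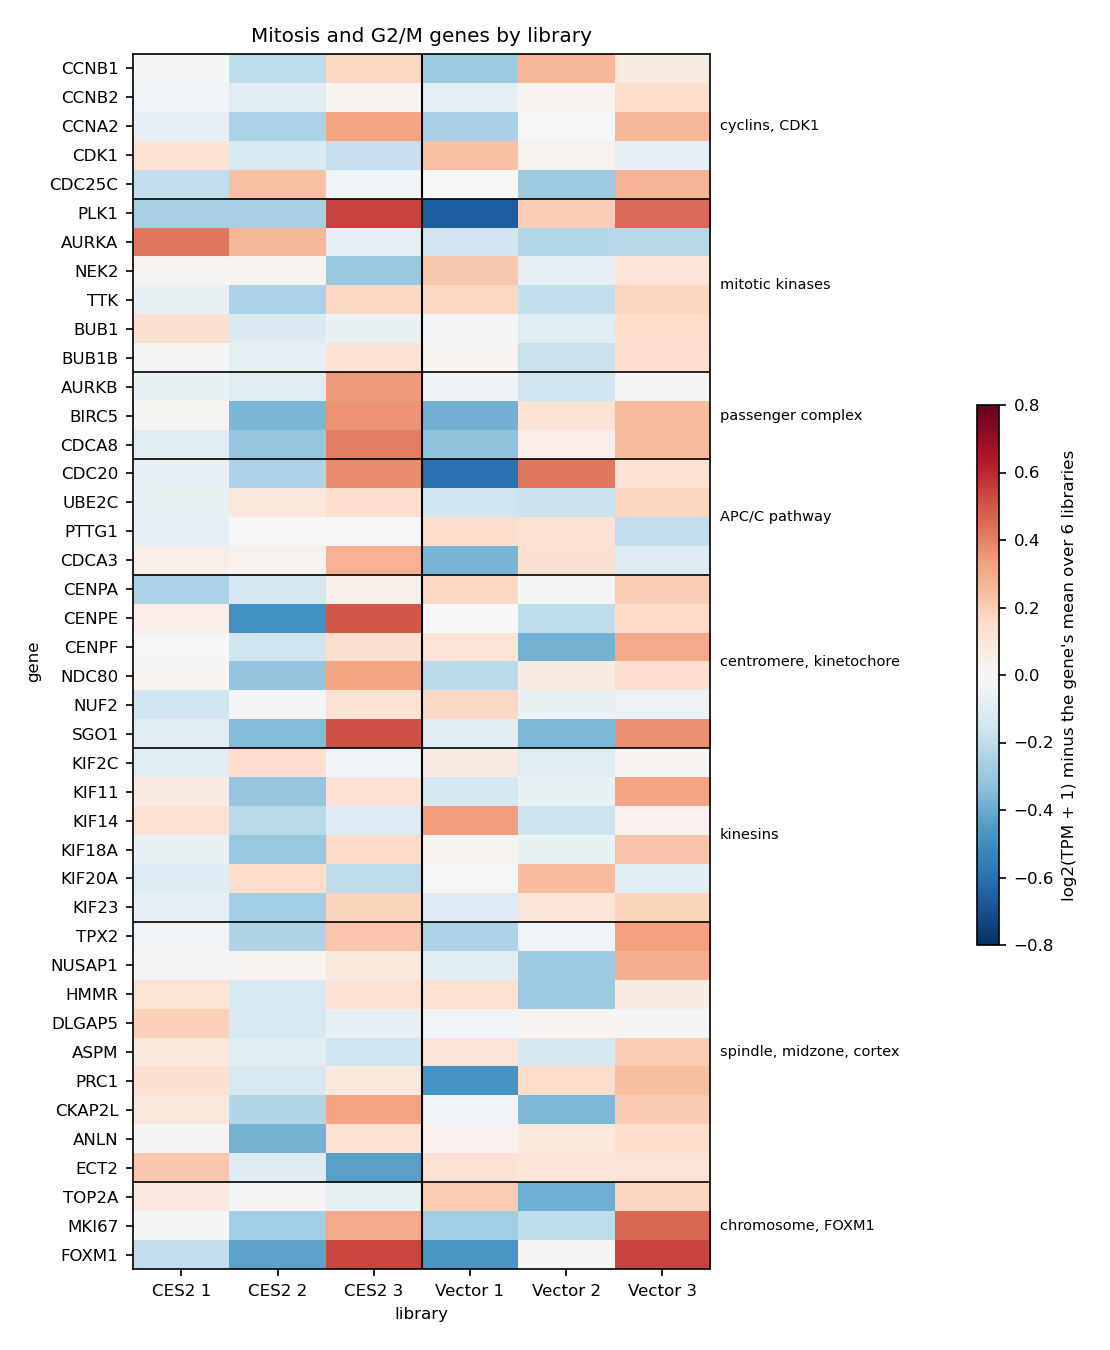
Each cell is log2(TPM + 1) of a member in a library minus the member's mean over the 6 libraries, with red above and blue below the mean, and CES2 libraries left of Vector libraries. PLK1 and CDC20 are darkest blue in Vector 1, and AURKA is red in CES2 1 and CES2 2.

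The members did not share one order of libraries. Vector 1 was the lowest library for 11 members, namely CCNB1, CCNA2, PLK1, BIRC5, CDCA8, CDC20, CDCA3, TPX2, PRC1, MKI67 and FOXM1. CES2 2 was lowest for another 11, namely CCNB2, TTK, BUB1, CENPE, NDC80, KIF11, KIF14, KIF18A, KIF23, DLGAP5 and ANLN. Vector 2 was lowest for 12, among them TOP2A, CENPF, NUSAP1, HMMR, AURKA and AURKB. CES2 3 was lowest for CDK1, NEK2, ASPM, ECT2 and KIF20A, CES2 1 for CENPA and NUF2, and Vector 3 for PTTG1. Over all tested genes Vector 1 was lowest for 18.3%, CES2 2 for 20.5% and Vector 2 for 22.9%. For CES2 3 that share was 25.2%, for CES2 1 7.2% and for Vector 3 5.7%. CDK1 was highest in Vector 1 and lowest in CES2 3, whereas PLK1 was lowest in Vector 1 and highest in CES2 3. These patterns were read from the same values and were not tested. Without Vector 1 and CES2 2, a choice made after seeing the data, 0 members were called, 22 were positive and 20 negative, and the median log2 fold change was 0.0081.

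Other genes of the pathway, 164 in 6 lists, had 0 called members in either direction. The median log2 fold change was -0.029 over 56 other mitotic genes, with 24 positive. The smallest p there belonged to BUB3, the checkpoint partner of BUB1 and BubR1. BUB3 was at 171, 138 and 163 TPM in CES2 and at 143, 96.7 and 83.9 TPM in Vector, a log2 fold change of 0.57 (standard error 0.23; limma, adjusted p = 0.9998). Vector 1 lay above CES2 2, so the groups overlapped. PIMREG followed, with means of 31.3 TPM in CES2 and 42.7 TPM in Vector, and then KNTC1, a kinetochore protein of the spindle checkpoint, with 26.6 TPM in CES2 and 33.4 TPM in Vector. Of 17 APC/C subunits and regulators 7 were positive, with a median of -0.037, and ANAPC11, UBE2S and ANAPC15 had the smallest p. Of 18 condensin and cohesin genes 5 were positive, with a median of -0.062, and STAG2, SMC1A and PDS5A led by p.

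Among 14 genes for transcription factors of the G2/M programme and their partner proteins, 4 were positive and the median was -0.061. RBBP4, a histone-binding subunit of MuvB and of several chromatin complexes, was at 44.5, 41.7 and 45.8 TPM in CES2 and at 77.5, 52.3 and 71.5 TPM in Vector. Every CES2 library lay below every Vector library, with a log2 fold change of -0.58 (standard error 0.20; limma, adjusted p = 0.9998), against 2.63% of all tested genes whose groups separated in that direction. NFYB, a subunit of NF-Y, and RBL2, the pocket protein p130, came next by p, and their groups overlapped. Of 11 regulators of mitotic entry, a list of CDK1 inhibitors, checkpoint genes and the PP2A arm, 5 were positive, with a median of -0.0024, and ARPP19, WEE1 and CDKN1B had the smallest p. ARPP19 inhibits the phosphatase PP2A and so favours mitotic entry. WEE1, the kinase that holds CDK1 inactive, was at 58.4, 42.0 and 45.9 TPM in CES2 and at 39.8, 41.5 and 51.6 TPM in Vector.

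DNA replication and G1/S genes, the neighbouring cell cycle programme, were set beside the members. Of 48 tested, 0 were called, 41 had negative log2 fold changes and the median was -0.10, against 22 of 42 and -0.0018 for the members. Over all tested genes 36.3% were positive and the median was -0.057. CDC7 and RFC5 were among the genes with the smallest p, and their groups overlapped. RFC4, a subunit of the clamp loader named here after its values were seen, was at 132, 106 and 132 TPM in CES2 and at 136, 134 and 137 TPM in Vector. It was the 1 gene of the 48 whose groups did not overlap, against 2.63% of all tested genes in that direction, and it was not called, with a log2 fold change of -0.15 (standard error 0.17; limma, adjusted p = 0.9998). By library the G1/S median was 0.035, -0.39 and 0.18 in CES2 1 to 3 and -0.27, 0.17 and 0.28 in Vector 1 to 3. Both programmes were lowest in CES2 2 and highest in Vector 3, and the G1/S genes ranged more widely between libraries. Whether the lists differed in their response to CES2 was not tested.

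**Figure D4:**
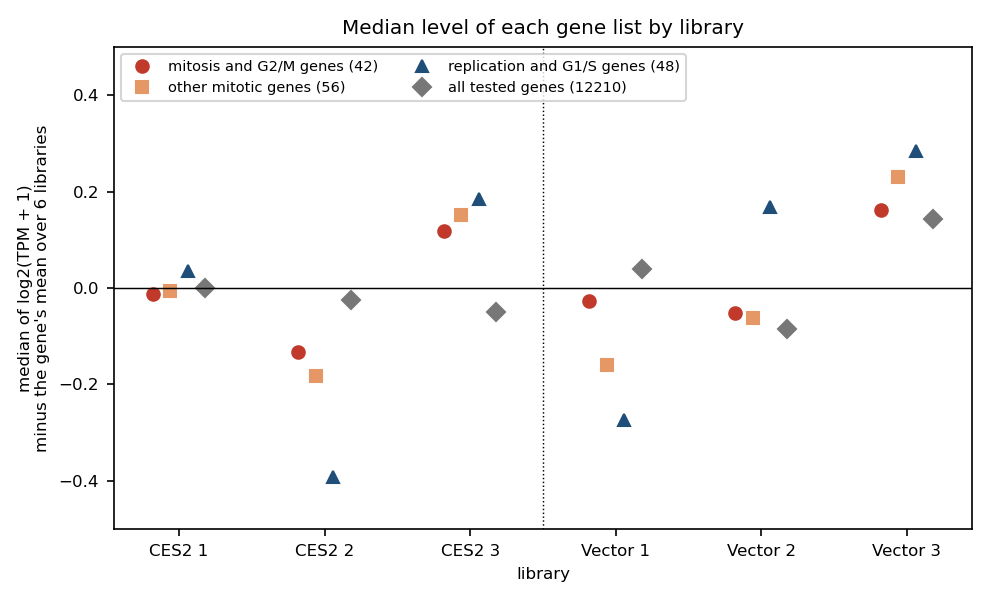
Median over each gene list of log2(TPM + 1) minus the gene's mean over the 6 libraries, by library, with CES2 left of Vector; symbols are the members (42), other mitotic genes (56), replication and G1/S genes (48) and all tested genes (12210). Members are lowest in CES2 2 at -0.13 and highest in Vector 3 at 0.16, and G1/S genes reach -0.39 in CES2 2.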

How the data were processed

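RNA was sequenced from 3 CES2 and 3 Vector libraries of Cal33 after ribosomal RNA removal and strand-specific library construction, per the labels' protocols. The deposited table gives 1 value per gene, library and listed transcript. The header leaves the unit open. The deposited values were taken as TPM because each library sums to between 999804 and 999893. Per the submitters' processing notes, the tools were StringTie 1.3.3, HISAT2 2.1.0 and edgeR 3.0.8, and the builds GRCh38 and hg38. Which annotation, filters or strand setting the authors used is not given in the sources used here.

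Blanks (73 to 279 per library) were read as 0. The fit used the genes that reached 1 TPM in 3 or more libraries, and log2(TPM + 1) was compared between groups with limma 3.58.1 in R 4.3.3 (intensity trend, Benjamini-Hochberg threshold 0.05). This scale understates changes of low genes. Intervals are per gene and not adjusted. Exact permutation tests used scipy 1.17.1 in Python 3.11.15. TPM are not counts, so no count test was run. Members and lists were chosen with earlier results of these data known. Values in every library are given for the most abundant and the smallest-p member of each of 8 role groups and for members whose groups do not overlap. The 3 smallest-p genes of each pathway list are named, except 1 that is not reported here, and other genes were named after their values were seen. Listed transcripts of all 42 members had the same coordinates in GENCODE release 29. Alternatives were each library left out, the replicate block, other scalings, filters, pseudocount, moderation and library weights.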

Additional observations from a re-analysis of the deposited data

How the results depend on the processing

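In none of the 15 alternatives was a member called, and the median log2 fold change of the members moved by less than the spread between libraries, from -0.084 to 0.095 when a library was left out. The count of genes called, 1 with all libraries, was 1 to 2 when a library was left out, 2 without Vector 1 and CES2 2, and 4 with library weights. The weights were 6.86 for CES2 1 and 0.513 to 1.12 for the other libraries, so that run rested mostly on CES2 1. The log2 fold change of CES2 stayed between 5.54 and 5.78 when a library was left out.

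Log2 fold changes of several members changed sign, and none of these was called. They included ECT2, at -0.22 in the main fit, CDK1, at -0.13, and AURKB, at 0.13. Median rescaling shifts every gene by the same amount, and with it CCNB1 was at 0.031, CENPF at 0.043, TPX2 at 0.028 and FOXM1 at 0.0066. The cause of the other changes was not tested. With quantile normalization PLK1 was at -0.0049, CDC20 at -0.036 and TOP2A at -0.024. With library weights CDK1 was at 0.037, PLK1 at -0.30, CDC20 at -0.046, KIF2C at -0.063 and ECT2 at 0.035. Without Vector 1 and CES2 2, PLK1 was at -0.19, CDC20 at -0.11, CENPF at 0.10 and KIF2C at -0.018. Leaving out a library gave ranges of -0.19 to 0.096 for CCNB1, -0.32 to 0.23 for PLK1, -0.014 to 0.21 for AURKB, -0.25 to 0.26 for CDC20, -0.21 to 0.13 for CENPF, -0.055 to 0.053 for KIF2C, -0.17 to 0.12 for TPX2, -0.18 to 0.11 for TOP2A and -0.34 to 0.20 for FOXM1. AURKA ranged from 0.29 to 0.54. Its unadjusted p (limma) was 0.0358 with median rescaling, 0.0495 with no filter and 0.0207 without CES2 3. With library weights it was 0.0051 (limma, adjusted p = 0.681), and AURKA was highest in CES2 1, the library with most weight. In the other runs, the main fit among them, its unadjusted p (limma) was 0.0586 to 0.224. With library weights 2 of 42 members had an unadjusted p (limma) under 0.05, beside 621 of the 12210 tested genes in that run.

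With the replicate block 1 gene and 0 members were called. The members' median stayed at -0.0018, which was fixed in advance. Each replicate number occurs once in each group, so the block cannot change a log2 fold change. Deviations from the group mean of same-numbered libraries correlated at 0.145, -0.524 and 0.375, and CES2 2 correlated best with Vector 1, at 0.682. Deviations within a group cancel out, which ties these correlations together, so they cannot decide whether the replicate numbers pair the libraries. Sequencing depth is unknown, so no limit from depth can be given for any value.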
